A study of Mus musculus with 27 samples.

Results

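Mitochondria in a muscle fiber join and divide, and the folds of their inner membrane, the cristae, hold the respiratory chain. The mitofusins Mfn1 and Mfn2 join outer membranes and Opa1 joins inner membranes, while the GTPase Dnm1l, drawn to the surface by receptors such as Mff and Fis1, divides the organelle. The inner-membrane proteases Oma1 and Yme1l1 cut Opa1, and Immt and Chchd3 are subunits of MICOS, the complex that holds cristae at their junctions. These 10 genes were followed in single tibialis anterior myofibers by every non-control probe whose listed gene name was one of theirs, 16 probes of 55681 on the array. Of the 16 probes, 15 had values on at least 75% of the 27 arrays and were tested, and these cover all 10 genes. The remaining probe, an Mfn2 probe designed on a cDNA, at chr4:147255665-147255724 of mm9, was well above background on 0 of 27 arrays.

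The study compared myofibers of WT mice, of mice lacking Smn1 in skeletal muscle (Smn1deltaSKM) and of Smn1deltaSKM mice that had received amniotic fluid stem cells (Smn1deltaSKM+AFS), to follow a muscle-restricted model of spinal muscular atrophy and a cell therapy. There were 8 WT myofibers from 2 mice, 12 Smn1deltaSKM myofibers from 3 mice and 7 Smn1deltaSKM+AFS myofibers from 2 mice, and every mouse was labelled as male and 3 months old. By the study's methods the deletion in Smn1deltaSKM mice is driven by HSA-Cre, whose actin promoter is active in skeletal muscle, on the Smn F7 allele. The c-kit+ GFP+ cells were injected through the tail vein of mice 3 months old, and fibers were taken a month later. That timing would make the Smn1deltaSKM+AFS mice older than their label. If they were older than the other groups, age and treatment cannot be told apart. The methods give C57BL/6 GFP+ mice as a source of fibers, whereas the study's results describe the WT fibers as those of control littermates. The untreated Smn1deltaSKM mice received no cells. Fibers were freed with collagenase and picked singly, and the RNA of each fiber was amplified by 18 cycles before it was hybridized in 1 colour.

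A level is given here as log2 of the signal relative to the 75th percentile of the same array, so that 0 is the 75th percentile and 1 unit is a doubling. It says nothing of the total RNA of a fiber. Limma was run on 1 averaged value per mouse, with p-values adjusted over all 22169 probes tested, and those with an adjusted p under 0.05 count as called. Arrays held values for 23183 to 37595 probes, and no member probe was saturated. The 8 WT arrays shared 1 slide and a scan day that held no other group, so that batch and genotype cannot be told apart in any comparison with WT. Smn1deltaSKM myofibers 1 to 3 and Smn1deltaSKM+AFS myofibers 2 and 3 were scanned on day 1, and the other myofibers of these groups on day 2. One of a pair of Smn1 probes fell by 1.68 in Smn1deltaSKM (limma, adjusted p = 0.0201), with mouse means of 1.86 and 1.84 in WT against -0.07, 0.20 and 0.36. The other Smn1 probe differed by 0.19 (limma, adjusted p = 0.715), and whether it lies inside the deleted part was not examined. Myofiber genes were bright, with Myh4, the myosin of the fastest fibers, between 6.87 and 7.49 in every mouse and Myh7, the slow myosin, between -0.83 and -0.64. Mouse means of Myh4 were 7.49 and 7.37 in WT, 7.01, 6.98 and 7.04 in Smn1deltaSKM, and 7.05 and 6.87 in Smn1deltaSKM+AFS. Its difference of -0.42 between Smn1deltaSKM and WT was not called (limma, adjusted p = 0.244). Myh1, of another fast type, was higher in Smn1deltaSKM than in WT by 2.20 (limma, adjusted p = 0.0225), and Myh2 was not tested. In Smn1deltaSKM+AFS, Myh1 had mouse means of 5.54 and 4.77. It was above WT there by 3.45 (limma, adjusted p = 0.0194), and above Smn1deltaSKM by 1.25, which was not called. Its Smn1deltaSKM+AFS myofibers ranged from -0.27 to 7.81. The part of fiber type in the results below was not tested. Of 11 myofiber probes tested between Smn1deltaSKM and WT, 2 were called lower and 1 higher. The lower ones were Ckm, the muscle creatine kinase, by -1.76 (limma, adjusted p = 0.0216) and Mylpf, a fast myosin light chain, by -1.99 (adjusted p = 0.0159). The myofiber probes not called were all lower in Smn1deltaSKM as well, by -0.79 to -0.08. Of the probes of satellite cell, endothelial, fibroblast and pericyte or smooth muscle genes, 1 of 2, 1 of 4, 1 of 4 and 2 of 3 were tested and 0 were called. Of 8 leukocyte probes, 4 were tested and 2 were called, both higher in Smn1deltaSKM than in WT: Ptprc by 1.33 (limma, adjusted p = 0.0220) and Cd68 by 2.99 (adjusted p = 0.0365). Neither overlapped between these groups, Cd68 at -2.35 to 0.36 in WT and 0.45 to 3.77 in Smn1deltaSKM, Ptprc at -1.75 to -0.84 and -0.62 to 0.43. The summed leukocyte signal did overlap, at 4.50 to 5.17 on WT, 4.30 to 5.15 on Smn1deltaSKM and 4.20 to 5.31 on Smn1deltaSKM+AFS arrays. That sum lies near the level of 1 bright leukocyte probe, of Csf1r, which was not called. It was at 4.34 to 5.10 in WT and 3.98 to 4.62 in Smn1deltaSKM, so the sum says little of Cd68 and Ptprc. The part of such cells in the results below was not tested.

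Because a level on an array rests on 1 short stretch of a transcript, the stretches behind the main results are shown first, as the array files give them. Yme1l1 and Chchd3 carry the calls, Immt moved with the scan day or slide, and Fis1 has a pair of probes that behaved differently. In the Chchd3 stretch the capitals mark AATAAA, the polyadenylation signal, which the probes of Chchd3 and Dnm1l hold and the probes of the other members do not.
Yme1l1: gcatacacatatggaaaaacatcggtgttt
Chchd3: gacaacttcactcactatcaatAATAAAtc
Immt: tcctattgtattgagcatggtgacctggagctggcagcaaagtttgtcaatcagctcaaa
Fis1, dim probe: aaagactccggttgatagaccgctacggag
Fis1, bright probe: agcctcttagcccctgcacctgtcgtttaa
The array files place these on build mm9 at chr2:23053737-23053766 on the plus strand for Yme1l1, chr6:32742239-32742268 on the minus strand for Chchd3 and chr6:71824730-71824789 on the plus strand for Immt. The Fis1 stretches lie on the plus strand of chr5, at chr5:137429355-137429384 for the dim probe and chr5:137442023-137442052 for the bright one. The Immt probe is shown whole and the others by 30 of their 60 bases.

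The comparison of Smn1deltaSKM with WT asks what loss of Smn1 in muscle does to these transcripts. Yme1l1 and Chchd3 were lower in Smn1deltaSKM, by 4.98-fold and 2.92-fold, and none of the members was called higher. Thus limma called 2 of the 15 probes tested (13.3%), against 21.5% of all probes, so the members were not called more often than the array as a whole. The called-lower share was 2 of 15 against 14.1%. The median difference of the members was -0.25 and that of all probes -0.137, which moved to 0.077 when arrays were centred on the probes present on every array. The split of all calls moved with it, from 1625 higher and 3132 lower to 2196 higher and 1795 lower. In 6 of the 15 probes the 3 Smn1deltaSKM mice were all lower than the WT pair, as in 33.9% of all probes. Counts of single myofibers beyond the range of WT, given below, were not made over all probes. Myofibers of a mouse are not independent, so these counts only describe the values.

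**Figure D1:**
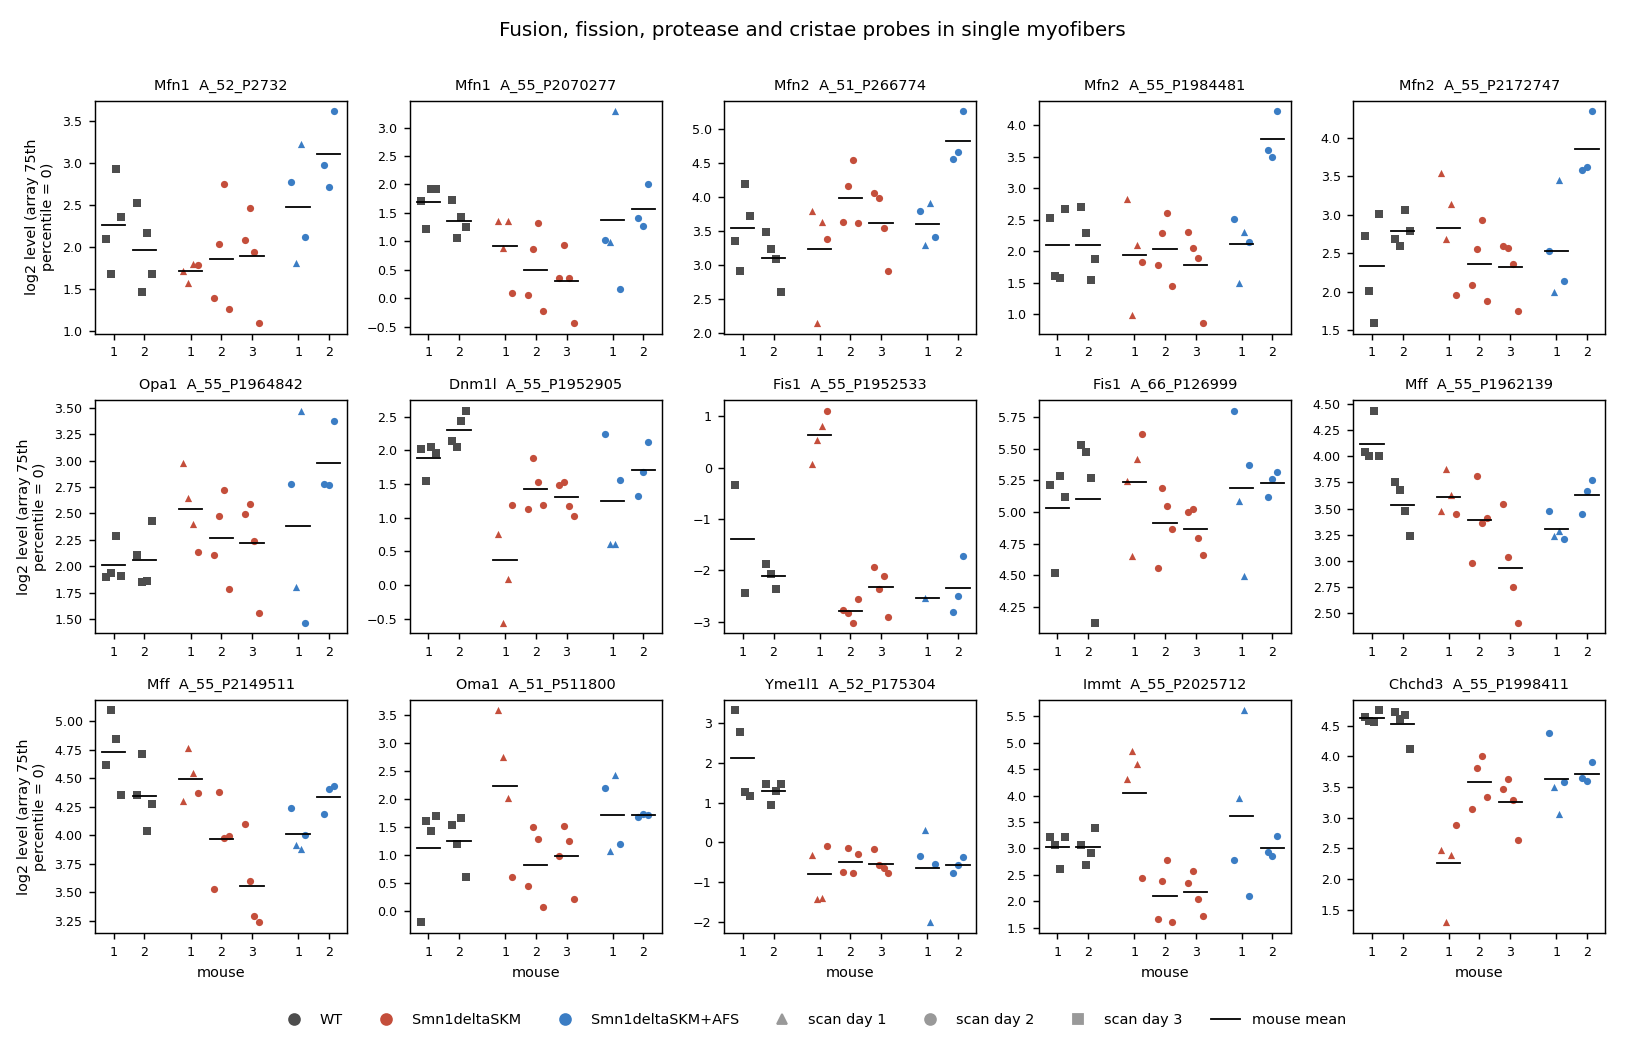
Log2 level of each of the 15 member probes tested (0 is the 75th percentile of the array) in every myofiber with a value, by mouse within WT (grey), Smn1deltaSKM (red) and Smn1deltaSKM+AFS (blue). Triangles, circles and squares are scan days 1, 2 and 3, and lines are mouse means. Yme1l1 and Chchd3 are the panels in which all Smn1deltaSKM myofibers lie below all WT myofibers. Genes outside the members, such as Spg7, Mtx1 and Fam73b, separate in the same way.

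Among the fusion genes, neither mitofusin nor Opa1 was called. The Mfn1 probe at chr3:32476215-32476274 (mm9) lay between 1.06 and 1.93 in the 8 WT myofibers, with a median of 1.57, and between -0.43 and 1.36 in the 12 Smn1deltaSKM myofibers, with a median of 0.61. Of the Smn1deltaSKM myofibers 9 lay below the lowest WT myofiber, and the mouse means of the groups did not overlap (1.69 and 1.37 against 0.92, 0.50 and 0.31). This Mfn1 difference of -0.95 (standard error 0.293) missed the threshold (limma, adjusted p = 0.0508). It was called in 5 of 21 alternatives, and adjusted p reached 0.391 in the others. The calls came without Smn1deltaSKM mouse 1 (-1.12, limma, adjusted p = 0.00932), without scan day 1 (-1.23, 0.025) and with normexp (-0.78, 0.0493). They also came over the probes present on every array (-0.95, 0.0427) and with myofibers as replicates (-0.95, 0.00763). Without Smn1deltaSKM mouse 2 or mouse 3 the probe was not called (-0.91 and -0.82, limma, adjusted p = 0.127 and 0.14). The second Mfn1 probe, at chr3:32476420-32476479, differed by -0.29 (limma, adjusted p = 0.489), so the pair of Mfn1 probes shared the sign and not the size. The 3 tested probes of Mfn2, which also tethers mitochondria to the endoplasmic reticulum, differed by -0.18, -0.05 and 0.29, with adjusted p between 0.627 and 0.932 by limma. On the brightest of these, at chr4:147247704-147247757, WT myofibers lay between 2.59 and 4.19 with a median of 3.29, and Smn1deltaSKM myofibers between 2.14 and 4.54 with a median of 3.63. The groups overlapped in all 3 Mfn2 probes at the level of myofibers. Opa1, the inner-membrane GTPase, lay between 1.85 and 2.43 in WT myofibers and between 1.56 and 2.98 in Smn1deltaSKM, where 6 of 12 myofibers were above the highest WT myofiber and 2 below the lowest. It had mouse means of 2.01 and 2.06 in WT and 2.54, 2.27 and 2.22 in Smn1deltaSKM, and the difference of 0.31 was not called (limma, adjusted p = 0.451).

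Of the fission genes, Dnm1l had the largest difference. Its probe lay between 1.54 and 2.59 in WT myofibers, with a median of 2.04, and between -0.56 and 1.88 in Smn1deltaSKM, with a median of 1.18. Of the 12 Smn1deltaSKM myofibers 11 lay below the lowest WT myofiber, and the difference of -1.06 (standard error 0.379) was not called (limma, adjusted p = 0.0770). The 3 Smn1deltaSKM myofibers scanned on day 1 were the lowest of the group, between -0.56 and 0.76. Without the 5 arrays of scan day 1 the Dnm1l difference was -0.79 and was called (limma, adjusted p = 0.0481). This was 1 of 3 calls of Dnm1l in 22 alternatives. Dnm1l was not called without Smn1deltaSKM mouse 1, 2 or 3 (-0.73, -1.26 and -1.19, limma, adjusted p = 0.0566, 0.0884 and 0.108).

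The outer-membrane receptor Fis1 is read by a pair of probes. The bright one lay between 4.12 and 5.53 in WT myofibers and between 4.56 and 5.62 in Smn1deltaSKM, a full overlap. Its mouse means averaged 5.07 ± 0.047 in WT (SD, n = 2 mice) and 5.01 ± 0.20 in Smn1deltaSKM (SD, n = 3 mice), and differed by -0.06 (limma, adjusted p = 0.879). The dim one had a value on 5 of 8 WT arrays, on all 12 Smn1deltaSKM arrays and on 4 of 7 Smn1deltaSKM+AFS arrays. Its values were between 0.07 and 1.11 in the 4 myofibers of Smn1deltaSKM mouse 1 and between -3.02 and -1.93 in the other 8 of the group, so that 1 mouse stood apart on both of its scan days. The group means differed by 0.25 (limma, adjusted p = 0.852), and by -0.81 without that mouse.

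Mff, the main receptor of Dnm1l, is read by overlapping probes that share 51 bases of their length and differ at 3 of them. In the 30 bases that hold all 3 differences, shown here with the differing bases in capitals, the first probe was designed on the RefSeq transcript and the second on a cDNA.
Mff, RefSeq probe: tgtGcaggactgaaGtcaaaccacctGact
Mff, cDNA probe: tgtAcaggactgaaCtcaaaccacctAact
Counted from 1 at the start of these 30 bases, the substitutions are G4A, G15C and G27A, and the array files place both stretches at chr1:82748743-82748772 on the plus strand of mm9. Which transcripts each one binds was not tested. On the RefSeq probe WT myofibers lay between 4.04 and 5.09 and Smn1deltaSKM myofibers between 3.24 and 4.76, with 6 of 12 below the lowest WT myofiber. The pair gave nearly the same difference, -0.53 and -0.52 in Smn1deltaSKM against WT (limma, adjusted p = 0.278 and 0.268). Over the myofibers, their deviations from the mouse means had a correlation of 0.80.

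Yme1l1, the ATP-dependent protease of the inner membrane, showed the largest difference of all members. In WT its 8 myofibers lay between 0.94 and 3.32, with a median of 1.38, and in Smn1deltaSKM the 12 myofibers lay between -1.42 and -0.08, with a median of -0.61. Every Smn1deltaSKM myofiber was thus below every WT myofiber. The mouse means were 2.13 and 1.29 in WT and -0.80, -0.48 and -0.53 in Smn1deltaSKM. Yme1l1 fell by 2.32 on the log2 scale, or 4.98-fold (standard error 0.317, limma, adjusted p = 0.00729). The call needs both WT mice: without WT mouse 1 the difference was -1.9 (limma, adjusted p = 0.118), and without WT mouse 2 it was -2.74 (adjusted p = 0.0551). Oma1, the stress-activated protease that acts on the same substrate, lay between -0.21 and 1.69 in WT myofibers and between 0.07 and 3.58 in Smn1deltaSKM, and differed by 0.16 (limma, adjusted p = 0.797). Its 3 highest values in Smn1deltaSKM, between 2.01 and 3.58, came from the scan-day-1 myofibers of mouse 1, and the myofiber of that mouse scanned on day 2 was at 0.60.

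**Figure D2:**
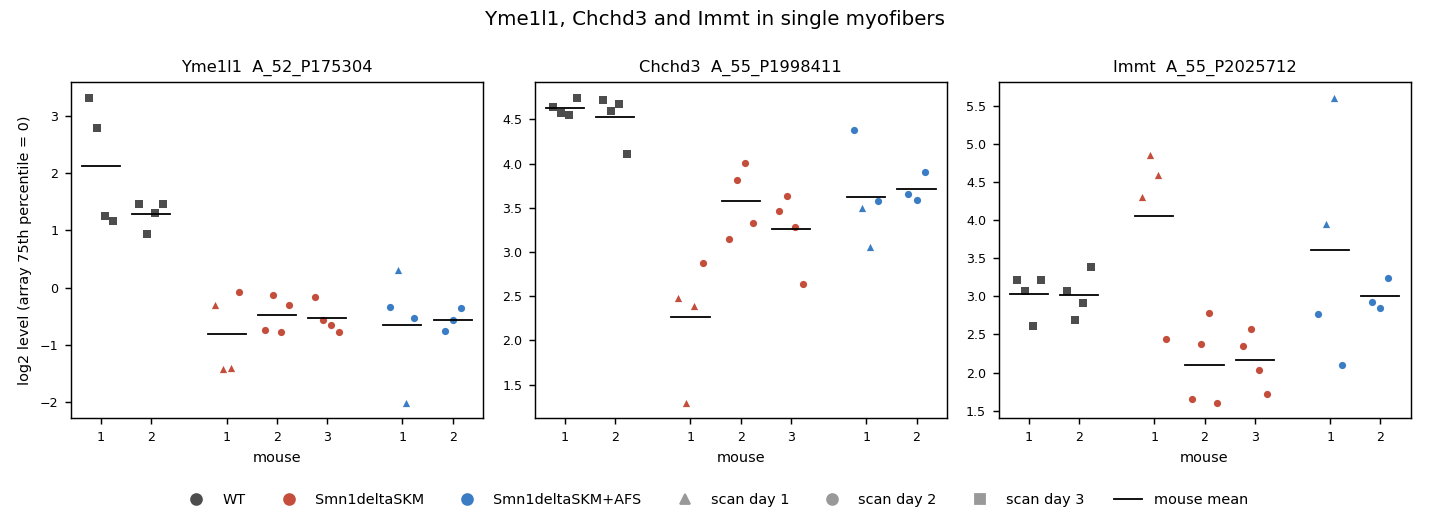
Log2 level (0 is the 75th percentile of the array) of Yme1l1, Chchd3 and Immt in each myofiber by mouse, with scan days as symbols and mouse means as lines. Yme1l1 is between -1.42 and -0.08 in Smn1deltaSKM and at or above 0.94 in WT, while Immt is at or above 3.95 in all 5 myofibers of scan day 1 and at most 3.24 in the 14 others of the Smn1deltaSKM and Smn1deltaSKM+AFS groups.

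Both MICOS subunits on the list were bright, and 1 of them was called. Chchd3, which links the complex to the outer membrane, lay between 4.11 and 4.75 in WT myofibers, with a median of 4.62, and between 1.29 and 4.01 in Smn1deltaSKM, with a median of 3.22. The groups did not overlap in any myofiber, and the mouse means were 4.63 and 4.53 in WT and 2.26, 3.57 and 3.26 in Smn1deltaSKM. Chchd3 fell by 1.55, or 2.92-fold (standard error 0.392, limma, adjusted p = 0.0292). The call was lost without WT mouse 1 (limma, adjusted p = 0.195), WT mouse 2 (0.127) or Smn1deltaSKM mouse 3 (0.0565), and with other scalings of the arrays, where the difference was between -1.33 and -1.25. The lowest Chchd3 values were those of the scan-day-1 myofibers of Smn1deltaSKM mouse 1.

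Immt, the core subunit that shapes the junctions, had no call and a wide spread. Its mouse means were 3.03 and 3.02 in WT and 4.05, 2.10 and 2.17 in Smn1deltaSKM, and the difference of -0.25 was within the spread between mice (limma, adjusted p = 0.770). Within Smn1deltaSKM mouse 1 the 3 myofibers of scan day 1 lay between 4.31 and 4.85 and the myofiber of scan day 2 at 2.44. Within Smn1deltaSKM+AFS mouse 1 the pair of scan-day-1 myofibers was at 3.95 and 5.61 and the pair of scan day 2 at 2.10 and 2.77. Scan day thus separated the Immt values within both mice that span it. In these mice the arrays of the 2 scan days also lay on different slides, so scan day and slide cannot be told apart. Without Smn1deltaSKM mouse 1 the Immt difference was -0.89 and was called (limma, adjusted p = 0.0287), and without the 5 arrays of scan day 1 it was -0.78 and was not called (adjusted p = 0.0579). The part of the scan day or slide in the Immt result was not tested.

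The comparison of Smn1deltaSKM+AFS with Smn1deltaSKM asks whether the injected cells changed these transcripts. It uses the same 3 Smn1deltaSKM mice as the comparison with WT, so the values of the 2 comparisons are not independent. No member was called, nor was any other probe (limma, 0 of 22169, 0.0%), with 712 probes and 3 member probes at an unadjusted p under 0.05. All 15 differences but that of the dim Fis1 probe were above 0, as were 12800 of all 22169. Their median was 0.44, against 0.06 over all probes. Other mitochondrial genes, given below, were mostly above 0 as well. In at least 1 alternative the sign turned in 8 of the 15 probes. With slide as a fixed block, for which 1 slide held both groups with 1 myofiber each, 6 probes turned: Opa1 (-0.66), Yme1l1 (-0.47), the Mff pair (-0.35 and -0.23), Immt (-0.32) and bright Fis1 (-0.3). In 4 of the 15 probes both Smn1deltaSKM+AFS mice lay above all 3 Smn1deltaSKM mice, against 12.3% of all probes.

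Yme1l1 stayed at the Smn1deltaSKM level. In the 7 Smn1deltaSKM+AFS myofibers it lay between -2.01 and 0.32, with a median of -0.53, and the mouse means of -0.64 and -0.56 fell among those of Smn1deltaSKM. The difference from Smn1deltaSKM was 0.01 with a standard error of 0.317. Against WT it fell by 2.31, or 4.96-fold (limma, adjusted p = 0.0175), the only member call of the 15 in that comparison (6.67% against 7.33% of all probes). That call was lost without any one of the 4 mice of the WT and Smn1deltaSKM+AFS groups, with adjusted p between 0.0641 and 0.180. Chchd3 lay between 3.06 and 4.38 in Smn1deltaSKM+AFS, with mouse means of 3.63 and 3.72 that fell between the other groups. It differed by 0.64 from Smn1deltaSKM (standard error 0.392, limma, p = 0.138 before adjustment) and by -0.91 from WT (p = 0.0661 before adjustment), so neither step was called. Without Smn1deltaSKM mouse 1 the Chchd3 difference from Smn1deltaSKM was 0.26. Dnm1l, with mouse means of 1.25 and 1.70, differed by 0.44 from Smn1deltaSKM, or 0.11 without Smn1deltaSKM mouse 1 and 0.22 without Smn1deltaSKM+AFS mouse 2, and by -0.62 from WT.

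The Mfn1 probes were higher in Smn1deltaSKM+AFS than in Smn1deltaSKM by 0.97 (standard error 0.291) and 0.89 (standard error 0.293), with unadjusted p of 0.00982 and 0.0154 by limma and adjusted p of 1.0 for both. For Mfn2 the differences were 1.03, 0.69 and 0.60, and they came from 1 mouse. On the probe with the largest difference, at chr4:147248019-147248078 (mm9), the mouse means were 2.12 and 3.78 in Smn1deltaSKM+AFS, against 1.94, 2.04 and 1.78 in Smn1deltaSKM. All 3 myofibers of Smn1deltaSKM+AFS mouse 2 lay above every other myofiber of the study on each of the 3 Mfn2 probes, whereas mouse 1 lay among the rest. Without mouse 2 the Mfn2 differences were 0.20, 0.02 and -0.02. With scan day as a block the Mfn2 differences were 1.00, 0.65 and 0.58, and those of Mfn1 0.96 and 0.87. With slide as a fixed block they were smaller, 0.42, 0.29 and 0.13 for Mfn2 and 0.36 and 0.13 for Mfn1. Opa1 had mouse means of 2.38 and 2.98 and differed by 0.33 (limma, p = 0.280 before adjustment), or 0.03 without Smn1deltaSKM+AFS mouse 2 and 0.63 without mouse 1. The bright Fis1 probe differed by 0.20 and the Mff probes by 0.16 and 0.17.

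**Figure D3:**
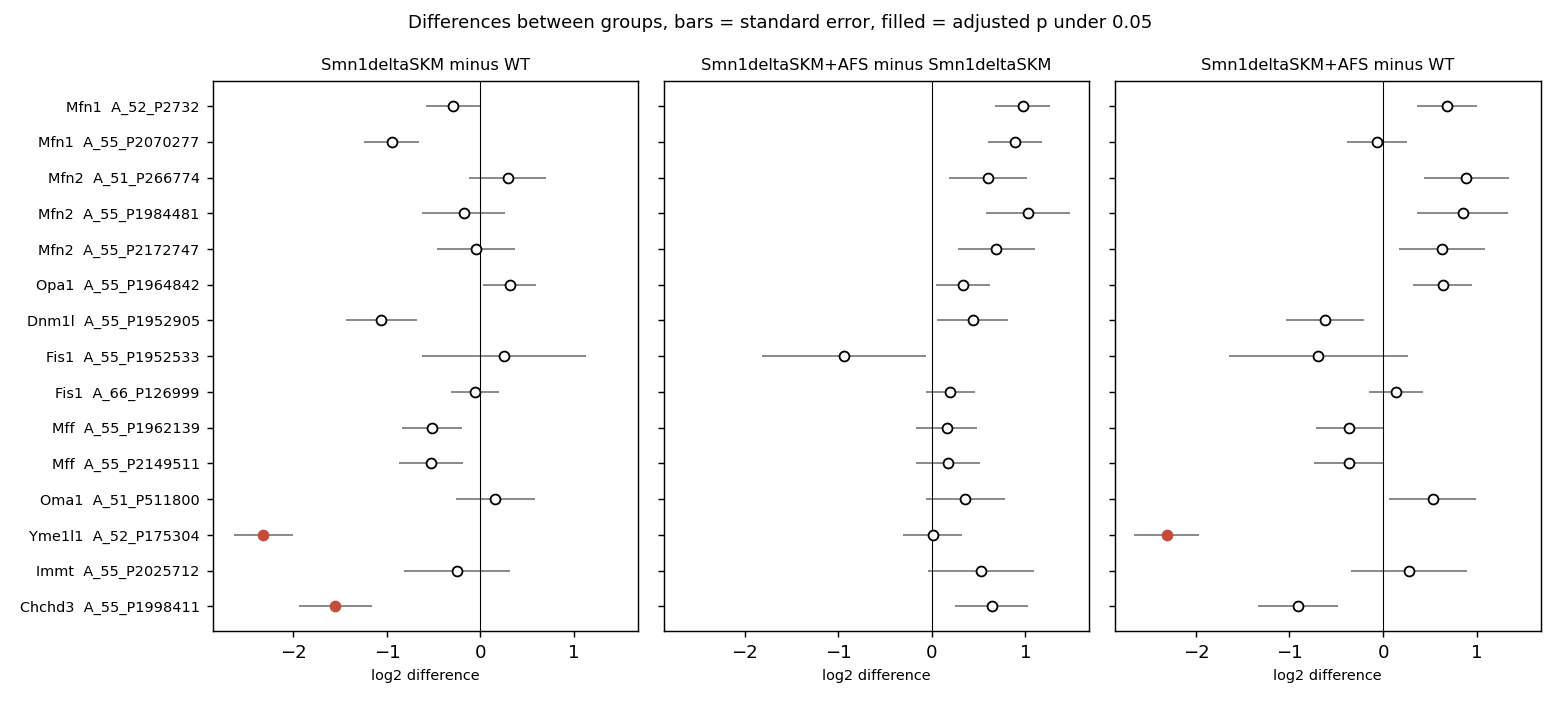
Log2 differences between groups for the 15 member probes tested, in 3 panels by comparison, with bars of 1 standard error. Filled points have a limma adjusted p under 0.05: Yme1l1 and Chchd3 in the left panel, none in the middle panel and Yme1l1 in the right panel.

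Myofibers of 1 mouse differed in these transcripts about as much as in others. The SD between myofibers of a mouse had a median of 0.529 over the 15 probes and 0.447 over all 22169, where the 10th and 90th percentiles were 0.29 and 0.717. Immt (0.796) and Oma1 (0.764) lay above that range and the Mff probes (0.279 and 0.284) below it. These SDs, and the deviations below, pool both scan days of Smn1deltaSKM mouse 1 and of Smn1deltaSKM+AFS mouse 1. Deviations from the mouse mean were also set against each other over the 27 arrays, for the 14 member probes with a value on each. Between members of different genes the median correlation was 0.29, against 0.04 over all pairs of 13134 probes, and it ran from -0.50 (Dnm1l with Immt) to 0.85 (Mfn1 with Opa1, and Mfn1 with Immt). Chchd3 deviated together with the bright Fis1 probe (0.78) and with Dnm1l (0.77), and its correlations with the Mfn2 probes were 0.69, 0.64 and 0.16. Yme1l1 had a median of -0.14 with the other members. These points share their array, its amplification and its scan day, and are given as a description.

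The other genes of fusion, fission, inner-membrane proteolysis and cristae were counted from a list of 47 genes on the array, of which 41 had a tested probe. Of their 63 probes limma called 14 lower and 0 higher in Smn1deltaSKM than in WT (22.2%, against 14.1% of all probes called lower and 21.5% called in either direction), and the median difference was -0.59 against -0.14. For the MitoCarta inventory of mitochondrial genes, which also holds members of both lists, 1010 probes had a median difference of -0.57, and 24.7% were called. With WT mouse 1 or WT mouse 2 left out, limma called 0 probes of the whole array, these included. In Smn1deltaSKM+AFS against Smn1deltaSKM, 0 of the 63 probes were called, 56 of the differences were above 0 and their median was 0.46. Of the 1010 MitoCarta probes 855 were above 0 in that comparison, with a median of 0.36. Over the whole array it was 12800 of 22169, with a median of 0.06.

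Of 25 cristae probes 8 were called, all lower (32.0%, against 14.1% of all probes). Crls1, which makes cardiolipin, differed by -1.76 and Mtx1, an outer-membrane protein that associates with MICOS, by -1.40. Apoo and Apool, both MICOS subunits, differed by -1.31 and -1.30 (limma, adjusted p between 0.0218 and 0.0326 for all 4). Of the further Apoo probes, 1 was called (-1.16, limma, adjusted p = 0.0338) and 1 was not (-0.91, 0.0741). Crls1 was also lower in Smn1deltaSKM+AFS than in WT, by -2.41 (limma, adjusted p = 0.0249), with values on only 3 of 7 Smn1deltaSKM+AFS myofibers, 1 of them from mouse 2. Of the fusion list, Fam73b, an outer-membrane protein that promotes fusion, differed by -1.69 and Slc25a46 by -1.20 (limma, adjusted p = 0.0284 and 0.0351). Of the fission list, Mtfr1 differed by -1.14 and Dnm2, a dynamin, by -0.94 (limma, adjusted p = 0.0277 and 0.0408). The other probes of Mtfr1 and Dnm2 were not called (-0.62 and -0.92, limma, adjusted p = 0.196 and 0.06).

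Of the 18 other protease probes 2 were called, both lower (11.1%, against 14.1% of all probes). Spg7, a subunit of the m-AAA protease on the matrix face of the inner membrane, had mouse means of 1.49 and 1.61 in WT, -0.52, -0.36 and -0.22 in Smn1deltaSKM, and -0.01 and 0.68 in Smn1deltaSKM+AFS. It differed by -1.91 between Smn1deltaSKM and WT (limma, adjusted p = 0.00931). Immp1l, of the inner-membrane peptidase, differed by -1.06 on 1 probe (limma, adjusted p = 0.0365) and by -0.52 on the other (adjusted p = 0.205). Between Smn1deltaSKM+AFS and WT, 2 of the 63 probes of the whole list were called (3.17%, against 7.33% of all probes). Crls1 was the lower one. The higher one was Smcr7, a receptor of Dnm1l, by 1.31 (limma, adjusted p = 0.0424). Its mouse means were 0.86 and 1.05 in Smn1deltaSKM+AFS against -0.37 and -0.36 in WT.

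**Figure D4:**
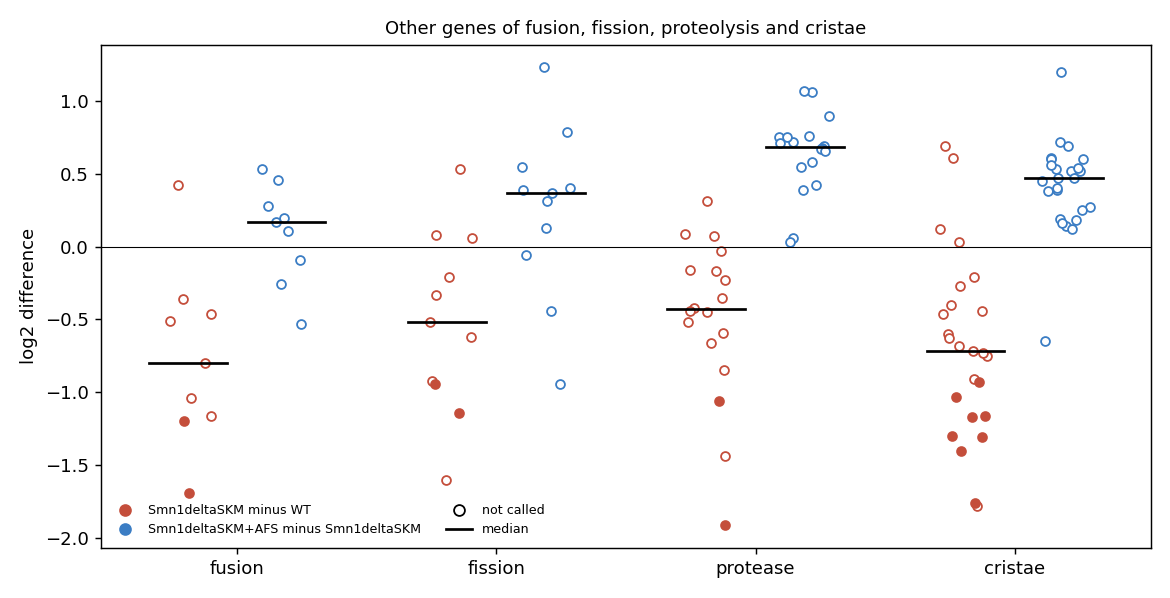
Log2 difference of each tested probe of the other fusion, fission, protease and cristae genes, for Smn1deltaSKM minus WT (red) and Smn1deltaSKM+AFS minus Smn1deltaSKM (blue), with medians as lines and called probes filled. The medians of Smn1deltaSKM minus WT lie between -0.80 (fusion) and -0.43 (protease), and none of the blue points is filled.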

How the data were processed

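Single-myofiber RNA was hybridized to Agilent SurePrint G3 mouse arrays. Per the file headers, the authors' scanner files give for each spot a background-subtracted intensity from Feature Extraction 10.7.3.1, not scaled between arrays. The deposited value table holds the authors' normalized intensity and served as an alternative. Here log2 of the processed signal minus that of the array's 75th percentile was used. Spots not found, not well above background or marked uneven were left out, repeated spots were averaged, and probes needed a value on 75% of the 27 arrays. Myofibers were averaged by mouse, and limma 3.58.1 (R 4.3.3) fitted all 7 mice in 1 model with Benjamini-Hochberg adjustment. The fit was checked on simulated data, where it missed most of the differences put in. The members and lists were chosen with earlier results of these data known. All probes of the members are named, and of the list at most 4 called probes per role by size. Added to these are Smcr7, chosen after its value was seen, and the further probes of Apoo, Mtfr1, Dnm2 and Immp1l. Coordinates are those of the array files (mm9). The number of mice and arrays limits the precision. Blocked fits kept only probes whose difference could be estimated. Alternatives changed scaling, background, filters, replicate unit, blocks and the mice included.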

Additional observations from a re-analysis of the deposited data

Results flagged for a closer look

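Among 30 groups of 4 to 8 myofibers examined for a value far from the others, 2 were singled out, and chance alone gives about 1 in 20. The dim Fis1 probe was at -0.34 in WT myofiber 1, with the next WT value at -1.87 and values on 5 of 8 WT arrays. Chchd3 was at 4.11 in WT myofiber 8, the lowest of its group, with the next at 4.55, and this lowest value still lay above all 12 Smn1deltaSKM myofibers.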

How the results depend on the processing

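With 2 mice in a group the calls rest on few animals. The calls of Smn1deltaSKM against WT, 2 of 15 probes, became 1 with quantile normalization, arrays centred on the probes present on every array, the authors' value table or an adjusted p under 0.01, 6 with myofibers as replicates, and 4 without the 5 arrays of scan day 1, an alternative chosen after seeing the data. Leaving out 1 mouse gave 0 to 5 calls, with 0 when WT mouse 1 or WT mouse 2 was left out and 5 without Smn1deltaSKM mouse 1. For Smn1deltaSKM+AFS against Smn1deltaSKM the count of member calls was 0 in every alternative run and without any 1 mouse, while over all tested probes the 0 calls became 99 of 20548 with slide as a fixed block, where the dim Fis1 probe could not be estimated, and 26 with myofibers as replicates. For Smn1deltaSKM+AFS against WT the 1 call became 3 with myofibers as replicates, 2 with only these groups in the fit and 0 at an adjusted p under 0.01, and it was 0 to 2 without 1 mouse. The mouse numbers in the labels name no shared litter or day, and deviations of same-numbered mice had correlations from -0.054 to 0.3, so they were not taken as pairs. With the mouse number as a replicate block, the counts were 2, 0 and 1.

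Signs turned in 31 of 324 alternatives for single probes of Smn1deltaSKM against WT, in 6 probes of Mfn2, Fis1, Oma1 and Immt, all with differences not called. The Mfn2 probe A_55_P2172747 was at 0.16 with the authors' value table, centring or quantile normalization, 0.06 with normexp, 0.04 with the replicate block and 0.03 with slide as a random block. It was at 0.01 to 0.17 without Smn1deltaSKM mouse 2, Smn1deltaSKM mouse 3 or WT mouse 2. Without WT mouse 1 or Smn1deltaSKM mouse 1 it kept its sign, at -0.28 and -0.22. The Mfn2 probe A_55_P1984481 was at 0.0032, 0.03 and 0.43 with the authors' table, centring and normexp. The bright Fis1 probe was at 0.29, 0.16, 0.30 and 0.01 with the authors' table, centring, quantile normalization and normexp, 0.01 with the replicate block, 0.05 with slide as a random block, 0.07 without scan day 1 and 0.01 without Smn1deltaSKM mouse 3. The dim one was at -0.13, -0.14 and -0.05 with the authors' table, quantile normalization and normexp, and -0.81 and -0.11 without Smn1deltaSKM mouse 1 and WT mouse 2. Oma1 was at -0.28 without Smn1deltaSKM mouse 1 and -0.38 without scan day 1. Immt was at 0.05 with the replicate block, 0.13 with slide as a random block, and 0.09 and 0.05 without Smn1deltaSKM mouse 2 and mouse 3.

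For Smn1deltaSKM+AFS against Smn1deltaSKM, signs turned in 23 of 353 alternatives. With slide as a fixed block Opa1 was at -0.66, Yme1l1 at -0.47, Mff at -0.35 and -0.23, Immt at -0.32 and bright Fis1 at -0.30. With slide as a random block Mff was at -0.10 and -0.04 and Yme1l1 at -0.08, and with the replicate block Mff was at -0.06 and -0.03. Bright Fis1 was at -0.01 with the authors' table and -0.002 with quantile normalization. Yme1l1 was at -0.08 with centring, -0.0007 with myofibers as replicates, -0.13 without scan day 1, and -0.09 and -0.04 without Smn1deltaSKM mouse 1 and Smn1deltaSKM+AFS mouse 2. Without that last mouse Mfn2 (A_51_P266774) was at -0.02 and Mff at -0.01, without Smn1deltaSKM mouse 3 Mff was at -0.03 and -0.06, and without Smn1deltaSKM mouse 1 dim Fis1 was at 0.12. For Smn1deltaSKM+AFS against WT, 9 of 323 turned. The Mfn1 probe A_55_P2070277 was at 0.03 with the authors' table or quantile normalization, 0.06 with centring, and 0.03 and 0.10 without Smn1deltaSKM+AFS mouse 1 and WT mouse 1. Mff was at 0.05 with normexp, Immt at -0.30 without scan day 1 and -0.02 without Smn1deltaSKM+AFS mouse 1, and Mfn2 at -0.03 without Smn1deltaSKM+AFS mouse 2. At their other ends, the ranges of these probes without 1 mouse were 0.9 (dim Fis1), -0.17 (bright Fis1), -0.89 (Immt), -0.28 (Mfn2 A_55_P2172747) and 0.43 (Oma1) for Smn1deltaSKM against WT. They were 1.21 (Mfn2), -1.59 (dim Fis1), 0.32 and 0.41 (Mff) for Smn1deltaSKM+AFS against Smn1deltaSKM, and 1.3 (Mfn2) and 0.59 (Immt) for Smn1deltaSKM+AFS against WT. The cause was not tested for any of these.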
